A study of Homo sapiens with 6 samples.

Results

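The genes described here are the histone genes of the table. This family was chosen with earlier results of these data known, so its counts are not those of an unselected set. Membership went by symbol: HIST1 to HIST4 start the names of clustered, replication-dependent genes, and H1F, H2AF or H3F3 those of replacement genes. There were 33 histone genes among the 13271 genes of the table, 22 clustered and 11 replacement. The clustered genes comprised 3 for H1, 3 for H2A, 11 for H2B, 2 for H3 and 3 for H4, and the replacement genes 2 for H1, 6 for H2A and 3 for H3. In all, 30 of the 33 are protein coding in GENCODE 29, 20 of them clustered and 10 replacement. The others were the pseudogenes HIST1H1PS1, HIST2H2BC and H3F3AP4. GENCODE 29 holds 71 protein-coding HIST genes, of which only the 20 were listed, so the clustered counts do not describe the whole family. The lowest row total of the table was 25 reads, and a low gene could be listed through its control reads alone. Runs below with no filter used all genes that the table lists.

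RNA was measured in 5637, an established human bladder cancer cell line. In the MAT1A group, 3 libraries came from cells given a plasmid carrying MAT1A, the gene of the liver form of methionine adenosyltransferase, which makes the methyl donor S-adenosylmethionine. In the control group, 3 libraries came from cells given the empty vector. Both groups were transfected with a lipid reagent and their RNA was collected 48 h later. The labels give no genotype other than the plasmid and do not say whether the libraries of a group came from separate cultures, and the p-values therefore cover no more than the library-to-library spread, possibly a technical one.

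Histones are the proteins around which DNA is wrapped: H2A, H2B, H3 and H4 build the nucleosome core, and H1 binds the DNA between cores. Clustered histone genes lie mainly in gene clusters on chromosomes 6 and 1, are transcribed mostly in S phase, and make intronless mRNAs that usually end in a conserved stem-loop bound by SLBP in place of a poly(A) tail, although some also yield polyadenylated transcripts. Replacement genes lie singly, most have introns, and their mRNAs are polyadenylated and made through the cell cycle, supplying variants such as H2A.Z, H3.3 and H1.0. The TruSeq RNA kit named in the labels is, in its standard form, a poly(A)-capture kit, so clustered genes are read here through whatever share of their transcripts it captured. A lower value could be less histone mRNA or a smaller captured share of it, and these cannot be told apart. In bulk RNA, fewer cells that express a gene and less RNA per cell cannot be told apart either.

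Each library held 17.4 to 21.6 M reads in the table, and the values are reads on a scale close to CPM, on which 3 reads were worth 0.140 to 0.172. MAT1A was listed at 1.09, 0.253 and 4.54 in control libraries 1, 2 and 3 and at 1805, 1834 and 1917 in MAT1A libraries 1, 2 and 3, so it matched the labels. Over the 12866 genes tested, 516 were called higher and 952 lower in the MAT1A group (limma with Benjamini-Hochberg adjustment, adjusted p under 0.05). The epithelial genes listed as the identity of the line were all found (12 of 12), and limma called 6 of the 12 higher and 1 lower in the MAT1A group. Skeletal muscle genes, which an epithelial line should not express, were also present, with 19 of 20 listed. Their summed values were 547, 172 and 108 in the controls and 105, 52.8 and 49.3 in the MAT1A libraries, with 17 of 18 tested called lower by limma. That count was 4 of 18 with DESeq2, and 11 of 17 in limma without control library 1. Fibroblast genes (7 of 12 listed, none at 0) summed to 248 to 369 and 219 to 225, with 1 of 6 tested called lower, and of 12 leukocyte genes 1 was listed, LYZ, at most at 1.66.

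The clustered histone genes listed in the table were lower after MAT1A transfection, while replacement genes of the nucleosome core were close to the control level. The summed value of the 22 clustered genes was 159, 156 and 164 in control libraries 1, 2 and 3 and 62.9, 63.5 and 62.5 in MAT1A libraries 1, 2 and 3, so the groups did not overlap. The means were 159.7 ± 3.73 and 62.9 ± 0.502 (SD, n = 3 each), 2.54-fold lower in the MAT1A group. The 11 replacement genes summed to 2167, 2198 and 2187 in the controls and 2116, 2192 and 2089 in the MAT1A libraries, which overlapped. Their means were 2184 ± 16.1 and 2132 ± 53.3, a ratio of 97.6%. The clustered sum was thus 7.33%, 7.12% and 7.49% of the replacement sum in the controls and 2.97%, 2.90% and 2.99% in the MAT1A libraries. These sums rest on 2768 to 3394 clustered reads per control library and 1167 to 1340 per MAT1A library. Control library 3 and MAT1A library 1, the pair nearest each other across the groups in muscle signal, had muscle sums of 108 and 105 and clustered sums of 164 and 62.9. Beyond these values, the part of the muscle and fibroblast genes in the histone results was not tested.

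Gene by gene, the mean of all 22 clustered genes was lower in the MAT1A group, and in 21 of them every MAT1A library was below every control library, an order found in 15.7% of all genes of the table. The exception was HIST1H2BH. The mean was at most 0.5 of the control mean in 13 of the 22, against 1.45% of all genes. With no filter on low values, 18 of the 22 were called lower and 0 higher (limma, Benjamini-Hochberg adjusted p under 0.05), where 7.31% of all genes were called lower and 3.84% higher. edgeR's quasi-likelihood test on the recovered reads, also with no filter, called 18 lower and 0 higher, against 7.31% of all genes lower and 3.68% higher. DESeq2 called 15 lower and 0 higher, against 4.73% lower and 2.42% higher. The edgeR and DESeq2 runs with no filter were added after seeing the data. Leaving out any 1 library kept the limma count between 15 and 18. With the filter used for the tests below, which keeps genes that reach a value of 1 in 3 or more libraries, 17 clustered genes were tested and 14 called lower, against 7.4% of all genes. Of those 17, 5 passed the filter with fewer than 3 MAT1A libraries at that value, and 4 of the 5 were called. All 3 MAT1A libraries reached it for the other 12, and 10 of the 12 were called. The 5 were HIST1H1E, HIST1H2AE, HIST1H2AG, HIST1H2BH and HIST2H2BF. Among them HIST1H1E, HIST1H2AE and HIST2H2BF reached it in control libraries only, and did not pass the filter without any 1 control library. With this filter, edgeR called 14 of the 17 tested clustered genes lower and DESeq2 called 13, against 7.34% and 4.96% of all genes.

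Of the 11 replacement genes, all of which passed the filter, 2 were called lower, the linker histone genes H1F0 and H1FX, and 0 higher (limma; 0 also at an unadjusted p under 0.05), against 7.4% of all genes lower and 4.01% higher. edgeR and DESeq2 on the recovered reads gave the same counts for the 11, against 7.34% and 4.96% of all genes lower and 3.75% and 2.48% higher. The median ratio of the MAT1A to the control mean was 45.1% over the 22 clustered genes, with a range of 12.5% to 77.6%, and 98.2% over the 11 replacement genes, with a range of 64.0% to 106%. Over all genes of the table the median was 100.2%.

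**Figure D1:**
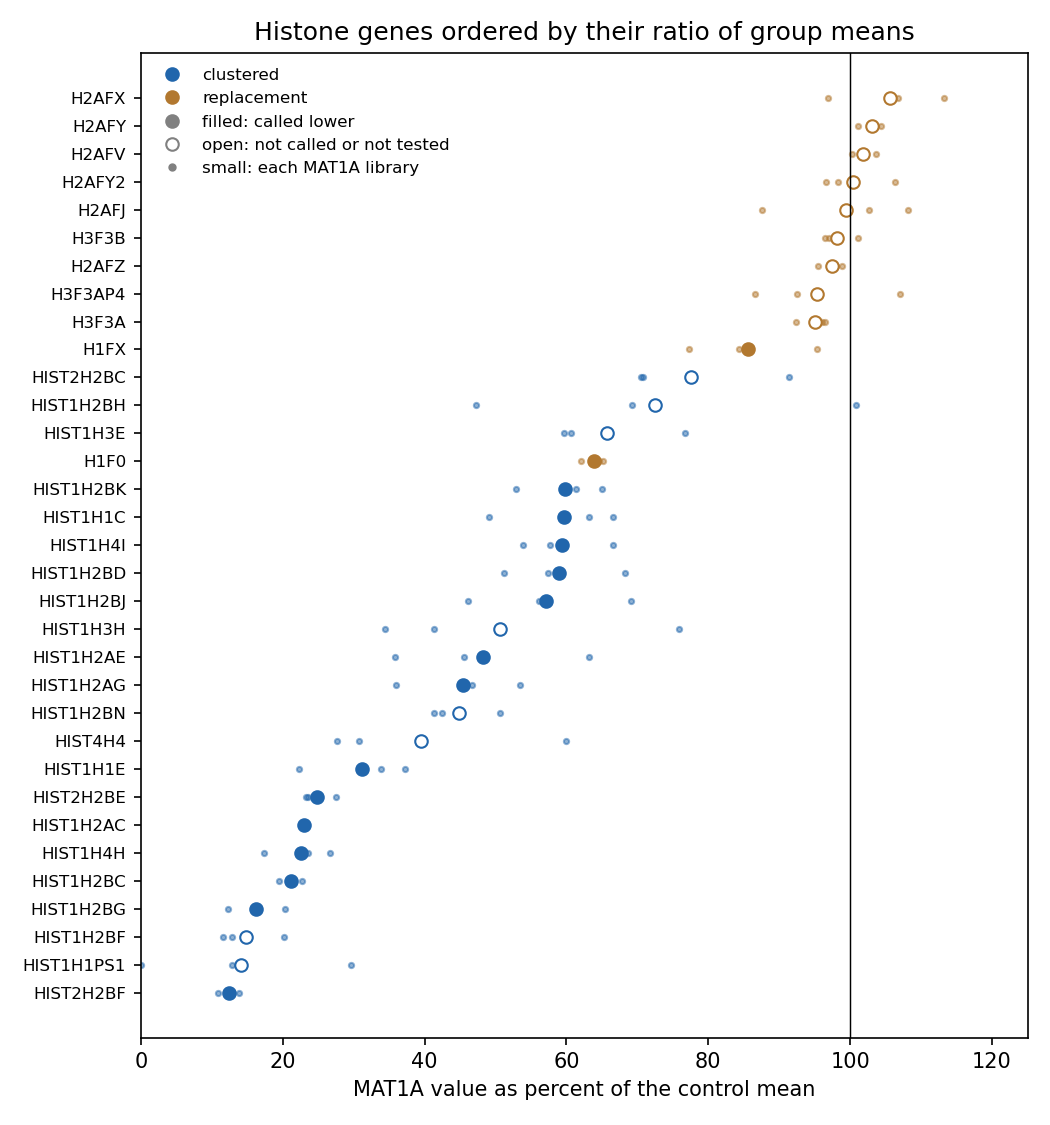
Each histone gene's MAT1A mean as a percent of its control mean (large circles, horizontal axis), with the 3 MAT1A libraries as small dots; circles are blue for clustered and brown for replacement genes and filled where limma called the gene lower. All 22 clustered genes lie below 100, between 12.5% and 77.6%, and among the replacement genes only the linker genes H1F0 at 64.0% and H1FX at 85.6% are filled.

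HIST1H2AC, an H2A gene (chr6:26124145-26139116, plus strand, GRCh38), took the largest part of the clustered sum in the controls. It was listed at 37.8, 38.6 and 38.8 in control libraries 1, 2 and 3 and at 8.84, 8.84 and 8.76 in MAT1A libraries 1, 2 and 3. All MAT1A libraries were far below all controls, and the spread within each group was small. The mean fell 4.36-fold, from 38.4 ± 0.560 to 8.81 ± 0.0435 (SD, n = 3). The log2 change was -2.0 (SE 0.059, adjusted p = 7.89e-13); here and below, changes are differences of log2(value + 1), which understates the fold of low genes, and adjusted p-values are from limma with Benjamini-Hochberg adjustment over all tested genes. Without this gene the clustered sum still differed, with a log2 ratio of group means of -1.16 against -1.34 with it.

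The other H2A genes of the clusters also fell. HIST1H2AG was listed at 3.04, 2.68 and 2.36 in the controls and at 0.970, 1.44 and 1.26 in the MAT1A libraries, a log2 change of -0.73 (SE 0.13, adjusted p = 0.00115) in limma. HIST1H2AE was listed at 1.38, 1.41 and 1.11 in the controls and 0.593, 0.822 and 0.466 in the MAT1A libraries, a change of -0.50 (SE 0.14, adjusted p = 0.0275). In neither did the groups overlap. The call of HIST1H2AE was lost with DESeq2 (adjusted p = 0.0999) and without MAT1A library 1 (0.0721 in limma) or MAT1A library 3 (0.0782). Without any 1 control library the gene did not pass the filter, and with no filter it was not called without control library 1 (0.0894 in limma) or control library 2 (0.0902). Summed over the 3 genes, clustered H2A was 42.2, 42.7 and 42.3 in the controls and 10.4, 11.1 and 10.5 in the MAT1A libraries, 25.2% of the control mean and the lowest such ratio of the 5 clustered types, with HIST1H2AC making up most of it.

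H2B was the type with most members, and its genes spread from 12.5% to 77.6% of the control mean. Among the H2B genes that fell furthest were HIST1H2BG (chr6:26215159-26216692, minus strand), HIST2H2BE (chr1:149884459-149886652, minus strand) and HIST1H2BC (chr6:26114873-26123926, minus strand). HIST1H2BG was listed at 12.9, 12.7 and 13.8 in the controls and 1.62, 2.67 and 2.14 in the MAT1A libraries. Its mean fell 6.14-fold, from 13.2 ± 0.599 to 2.14 ± 0.528, a log2 change of -2.18 (SE 0.11, adjusted p = 8.7e-10) in limma. HIST2H2BE, in the chromosome 1 cluster, was listed at 15.3, 14.8 and 16.9 in the controls and 4.31, 3.65 and 3.68 in the MAT1A libraries, a change of -1.77 (SE 0.089, adjusted p = 5.86e-10). It is one of the H2B genes known to yield polyadenylated mRNA. HIST1H2BC was listed at 5.74, 5.46 and 5.45 in the controls and 1.19, 1.08 and 1.26 in the MAT1A libraries, a change of -1.59 (SE 0.11, adjusted p = 2.28e-08). No MAT1A library of these genes came near a control library. HIST2H2BF, which rests on few reads, was at 1.78, 1.31 and 1.35 in the controls (26 to 31 reads) and 0.162, 0.206 and 0.186 in the MAT1A libraries (3 or 4 reads), a change of -1.06 (SE 0.14, adjusted p = 7.61e-05). It passed the filter through its control values only, and with no filter its limma adjusted p was 8.01e-05.

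A second set of H2B genes fell by less. HIST1H2BK was listed at 16.7, 17.7 and 17.5 in the controls and 9.16, 11.3 and 10.6 in the MAT1A libraries, 59.8% of the control mean, a log2 change of -0.69 (SE 0.078, adjusted p = 1.31e-05) in limma. HIST1H2BD was listed at 13.2, 14.5 and 14.2 in the controls and 9.54, 7.14 and 8.02 in the MAT1A libraries, 59.0% of the control mean, a change of -0.70 (SE 0.091, adjusted p = 6.26e-05). HIST1H2BJ was listed at 4.36, 3.34 and 4.01 in the controls and 2.69, 1.80 and 2.19 in the MAT1A libraries, 57.1%, a change of -0.61 (SE 0.13, adjusted p = 0.00473). The groups did not overlap in any of them, yet their MAT1A libraries kept over 45% of the control mean. HIST2H2BC, an H2B pseudogene, was not called, with 4.08, 4.09 and 4.68 in the controls and 3.02, 3.03 and 3.92 in the MAT1A libraries and a change of -0.29 (SE 0.11, adjusted p = 0.101); without MAT1A library 3 it was called (-0.39, adjusted p = 0.0371). HIST1H2BH was not called either and was the clustered gene whose groups overlapped, at 1.72, 1.36 and 1.35 in the controls and 1.02, 1.49 and 0.699 in the MAT1A libraries, with a change of -0.27 (SE 0.15, adjusted p = 0.263). Together the 11 H2B genes summed to 77.7, 77.0 and 81.1 in the controls and 33.3, 32.9 and 33.2 in the MAT1A libraries, 42.2% of the control mean.

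**Figure D2:**
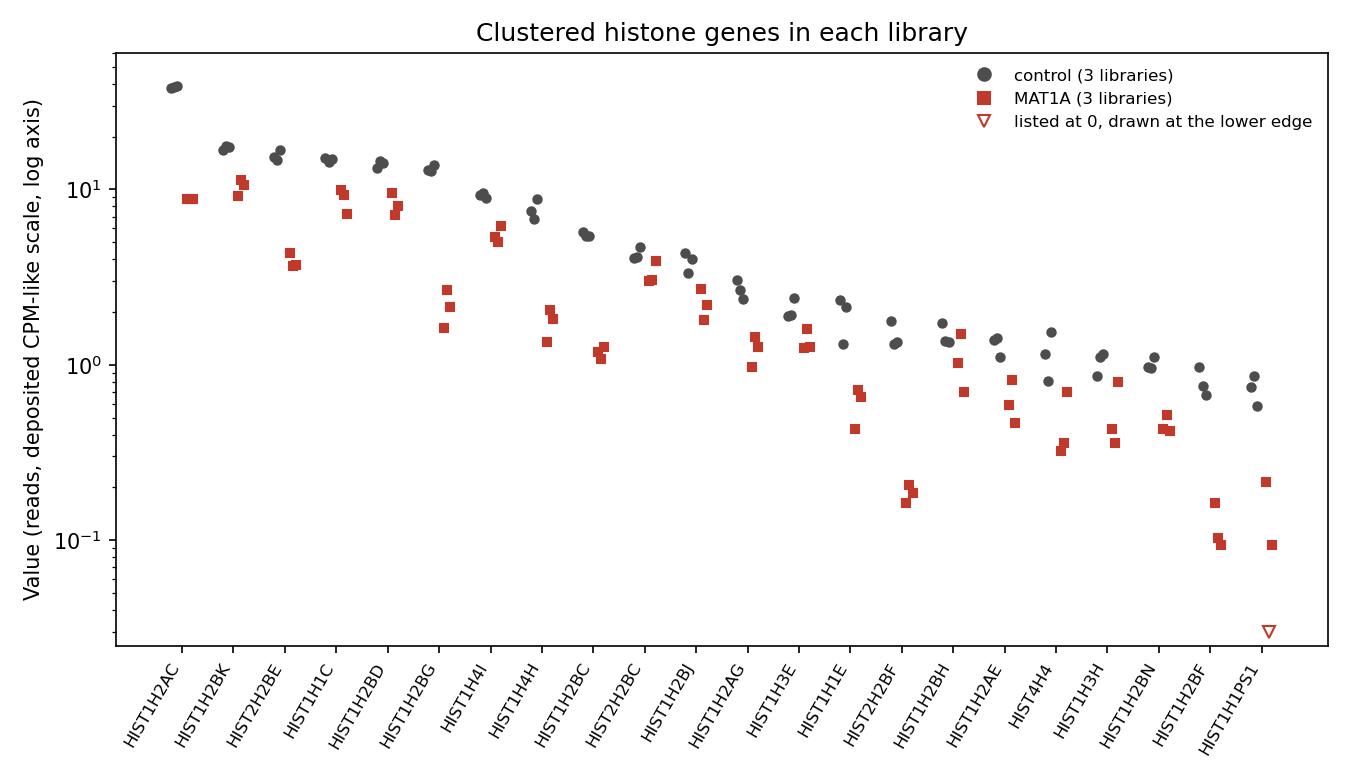
Values of the 22 clustered histone genes (log axis, reads on the deposited scale) in the 3 control libraries (grey circles) and the 3 MAT1A libraries (red squares), ordered by the control mean; a value of 0 is an open triangle at the lower edge. The red squares lie below the grey circles for every gene but HIST1H2BH, and the ratio is lowest for HIST2H2BF, HIST1H2BF, HIST1H2BG and the pseudogene HIST1H1PS1.

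Clustered H2A and H2B genes are often arranged head to head with a promoter region between them, and 3 such pairs had both genes in the table: HIST1H2AC with HIST1H2BC (218 bases between the annotated starts), HIST1H2AE with HIST1H2BG (282) and HIST1H2AG with HIST1H2BJ (291). All 6 genes were called lower in limma, against 7.4% of all tested genes, although the call of HIST1H2AE was lost in the runs named above. In the first pair both genes were at similar shares of the control mean, 23.0% and 21.2%. In the second pair they were at 48.2% for HIST1H2AE and 16.3% for HIST1H2BG, and in the third at 45.4% and 57.1%.

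The promoters of 5 of these genes are shown because clustered promoters share a known set of elements, among them the octamer ATTTGCAT of H2B promoters, which POU2F1 (OCT1) binds, and because genes with and without the octamer differed in their median ratio. The sequences are the 250 bases before the transcript start, from RefSeq (GRCh38.p14), written 5′ to 3′ on the gene's strand. Capitals mark matches, on either strand, to the octamer ATTTGCAT, to the CCAAT box and to the TATA box TATAAA. Matches of different motifs shared no base in those shown except overlapping TATAAA matches on both strands in HIST1H2BK. The first is the region between HIST1H2AC and HIST1H2BC (chr6:26123922-26124171 on the plus strand), followed by HIST1H2BG (chr6:26216689-26216938 on the minus strand), HIST2H2BE (chr1:149886683-149886932 on the minus strand), HIST1H2BK (chr6:27146859-27147108 on the minus strand) and HIST1H2BD (chr6:26157871-26158120 on the plus strand), the last of which had no octamer match. HIST1H2BK, with an octamer, and HIST1H2BD, with no exact match to it, were nonetheless at almost the same share of the control mean. Only 16.8% of the 36-base stretches of HIST1H2BK occur in no other gene, so its values may include reads of other genes.
HIST1H2AC: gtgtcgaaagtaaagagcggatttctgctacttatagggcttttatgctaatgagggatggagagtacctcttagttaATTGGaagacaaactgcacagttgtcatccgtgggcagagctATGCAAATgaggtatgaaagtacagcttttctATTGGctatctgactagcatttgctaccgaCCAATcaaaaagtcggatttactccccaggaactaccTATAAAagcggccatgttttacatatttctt
HIST1H2BG: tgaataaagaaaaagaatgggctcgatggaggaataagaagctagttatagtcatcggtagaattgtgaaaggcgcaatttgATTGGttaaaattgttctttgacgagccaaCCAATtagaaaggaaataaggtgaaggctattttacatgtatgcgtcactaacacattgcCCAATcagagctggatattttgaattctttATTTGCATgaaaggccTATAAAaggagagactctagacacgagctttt
HIST2H2BE: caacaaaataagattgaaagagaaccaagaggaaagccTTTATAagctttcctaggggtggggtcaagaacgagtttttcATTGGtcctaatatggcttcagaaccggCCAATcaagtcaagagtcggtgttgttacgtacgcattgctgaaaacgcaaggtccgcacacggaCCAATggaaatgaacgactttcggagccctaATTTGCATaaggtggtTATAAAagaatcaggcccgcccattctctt
HIST1H2BK: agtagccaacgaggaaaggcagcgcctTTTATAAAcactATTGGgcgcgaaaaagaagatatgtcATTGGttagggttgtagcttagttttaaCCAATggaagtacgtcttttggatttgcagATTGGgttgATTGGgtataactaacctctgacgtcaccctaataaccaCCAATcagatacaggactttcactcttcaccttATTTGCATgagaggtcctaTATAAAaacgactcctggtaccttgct
HIST1H2BD: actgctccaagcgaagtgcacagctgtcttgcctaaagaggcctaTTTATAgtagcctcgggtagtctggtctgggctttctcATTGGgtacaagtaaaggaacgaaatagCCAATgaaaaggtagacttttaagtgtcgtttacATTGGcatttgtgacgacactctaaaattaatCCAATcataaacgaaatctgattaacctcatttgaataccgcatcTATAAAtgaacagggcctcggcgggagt

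Of the 33 histone genes, 29 had a RefSeq promoter, 20 of them clustered. The octamer was found in 11 of the 20 (55%), against 1.63% of the 35116 RefSeq promoters of the same length and 1 of 9 replacement promoters, that of H3F3B. A CCAAT box was found in 18 of the 20 (90%), against 32.0% of all, and TATAAA in 13 of the 20 (65%), against 10.7% of all. Among replacement promoters a CCAAT box was found in 6 of 9 (66.7%) and TATAAA in 4 of 9 (44.4%). The 11 clustered genes with an octamer had a median ratio of 24.8% of the control mean, and the 9 without one had a median of 50.6%. The ranges, 12.5% to 72.4% and 22.5% to 65.7%, overlapped. The genes with an octamer were all H2A or H2B genes. Those without one were H1, H3 and H4 genes, with HIST1H2BD and HIST1H2BN. A contrast by octamer therefore cannot be told apart from one by histone type. TATAAA gave no such contrast (medians of 45.4% with and 44.8% without). The 3 head-to-head pairs share promoter bases, so the promoters are not independent of each other. These are descriptions with no test, and a match of letters is not a shown binding site.

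The stem-loop that ends replication-dependent histone mRNA was searched in the GENCODE 29 transcripts as a fully paired stem of 6 bases that opens with GG around a loop of TTT and any base. It was found in 14 of the 22 clustered genes and, among replacement genes, in H2AFX, a gene known to yield both a stem-loop and a polyadenylated mRNA. The forms found are shown so that the stems can be compared between types. Full pairing was a condition of the search, so a stem-loop with a mismatch would not have been found. Capitals mark the loop.
HIST1H2AC: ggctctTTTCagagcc
HIST1H2BC: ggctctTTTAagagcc
HIST1H4H: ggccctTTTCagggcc
HIST1H4I: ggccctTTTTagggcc
H2AFX: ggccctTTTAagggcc

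The form printed for HIST1H2AC was also that of HIST1H2BG, HIST2H2BE, HIST2H2BF, HIST1H2BH, HIST1H3H, HIST1H2AE and HIST1H2BN, and the form printed for HIST1H2BC was that of HIST1H2BD and HIST1H2BF. The longest annotated tail after the stem-loop, among transcripts that hold one, was 1128 bases in HIST1H2AC, 1059 in HIST1H2BG, 1729 in HIST2H2BE and 1655 in HIST1H4H, but 116 in HIST1H2BC, 39 in HIST1H2BD and 212 in HIST1H4I. The 9 clustered genes with over 500 bases after the stem-loop had a median ratio of 23.0%, and the 5 with fewer a median of 48.2%, with ranges of 12.5% to 72.4% and 21.2% to 59.4%. The 8 clustered genes in which no stem-loop was found had a median of 58.4% (14.1% to 77.6%), but the models of HIST1H1C (642 bases) and HIST1H2BK (381 bases) hold coding sequence only and could not show one. Transcript ends were not measured in these data.

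Among the H4 genes, HIST1H4H (chr6:26277609-26285638, minus strand) was listed at 7.58, 6.82 and 8.78 in the controls and 1.35, 2.06 and 1.82 in the MAT1A libraries. Its mean fell 4.44-fold, a log2 change of -1.67 (SE 0.12, adjusted p = 5.51e-08) in limma. HIST1H4I (chr6:27138588-27139881, plus strand) was listed at 9.24, 9.60 and 8.88 in the controls and 5.34, 4.99 and 6.15 in the MAT1A libraries and fell to 59.4% of the control mean, a change of -0.66 (SE 0.091, adjusted p = 0.000115). Both genes encode the same core protein but were at different shares of their controls. The promoter of HIST1H4H held no match to any of the 3 motifs. The 3 H4 genes summed to 18.0, 17.2 and 19.2 in the controls and 7.01, 7.40 and 8.67 in the MAT1A libraries, 42.4% of the control mean.

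Clustered H3 had the fewest reads. HIST1H3E was listed at 1.89, 1.92 and 2.41 in the controls and 1.24, 1.59 and 1.26 in the MAT1A libraries, and did not pass the test at a log2 change of -0.38 (SE 0.13, adjusted p = 0.0656) in limma, although the groups did not overlap. With the replicate number as a block it was called (adjusted p = 0.0485). The 2 H3 genes together summed to 2.75, 3.03 and 3.57 in the controls and 1.67, 1.95 and 2.05 in the MAT1A libraries, 60.6% of the control mean.

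The 5 clustered genes that did not pass the filter were HIST1H1PS1, HIST1H2BF, HIST1H2BN, HIST1H3H and HIST4H4. Their values ran from 0.579 to 1.54 in the controls and from 0 to 0.793 in the MAT1A libraries, and the groups did not overlap in any of the 5. The value of 0 was that of the pseudogene HIST1H1PS1 in MAT1A library 2, where a count of 0 allows up to 0.154 by counting error alone. With no filter, limma called 4 of the 5 lower, with adjusted p-values of 0.0056 for HIST1H2BF, 0.0106 for HIST1H1PS1, 0.0314 for HIST4H4 and 0.0333 for HIST1H2BN, and not HIST1H3H (0.0762). DESeq2 with no filter did not call HIST4H4 (adjusted p = 0.0704) or HIST1H2BN (0.128).

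For H1, the linker histone, the tested clustered genes and the replacement genes all fell. HIST1H1C (chr6:26055787-26056428, minus strand), a clustered H1 gene, was listed at 15.2, 14.4 and 14.9 in the controls and 9.86, 9.35 and 7.27 in the MAT1A libraries, a log2 change of -0.69 (SE 0.093, adjusted p = 8.4e-05) in limma. HIST1H1E was at 2.35, 1.31 and 2.12 in the controls and 0.431, 0.720 and 0.653 in the MAT1A libraries, a change of -0.86 (SE 0.15, adjusted p = 0.00146). HIST1H1E passed the filter through its control values only, and with no filter its limma adjusted p was 0.00155. In both, every MAT1A library was below every control library. The 3 clustered H1 genes summed to 18.3, 16.6 and 17.6 in the controls and 10.5, 10.1 and 8.02 in the MAT1A libraries, 54.6% of the control mean.

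H1F0 (chr22:37805093-37807436, plus strand) encodes H1.0, a replacement linker histone known to build up in differentiated and non-dividing cells. It was listed at 94.8, 106 and 96.6 in the controls and 63.9, 64.6 and 61.5 in the MAT1A libraries, with no overlap and little spread. The mean fell from 99.0 ± 5.77 to 63.3 ± 1.61 (SD, n = 3), 64.0% of the control, a log2 change of -0.64 (SE 0.044, adjusted p = 2.99e-08) in limma. H1FX (chr3:129314771-129316277, minus strand), which encodes the linker variant H1.X, was listed at 64.3, 63.3 and 67.8 in the controls and 54.9, 62.1 and 50.3 in the MAT1A libraries. Its change was small, -0.22 (SE 0.059, adjusted p = 0.0205), and MAT1A library 2 was only just below the lowest control. The call of H1FX was lost when control library 1 or 3, or MAT1A library 1 or 3, was left out (limma adjusted p of 0.0591, 0.112, 0.0709 and 0.065). An antisense gene, H1FX-AS1, overlaps 345 bases of H1FX and the libraries do not mark strand, so reads of the overlap cannot be assigned to either. Together the replacement H1 genes summed to 159, 169 and 164 in the controls and 119, 127 and 112 in the MAT1A libraries, 72.6% of the control mean.

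**Figure D3:**
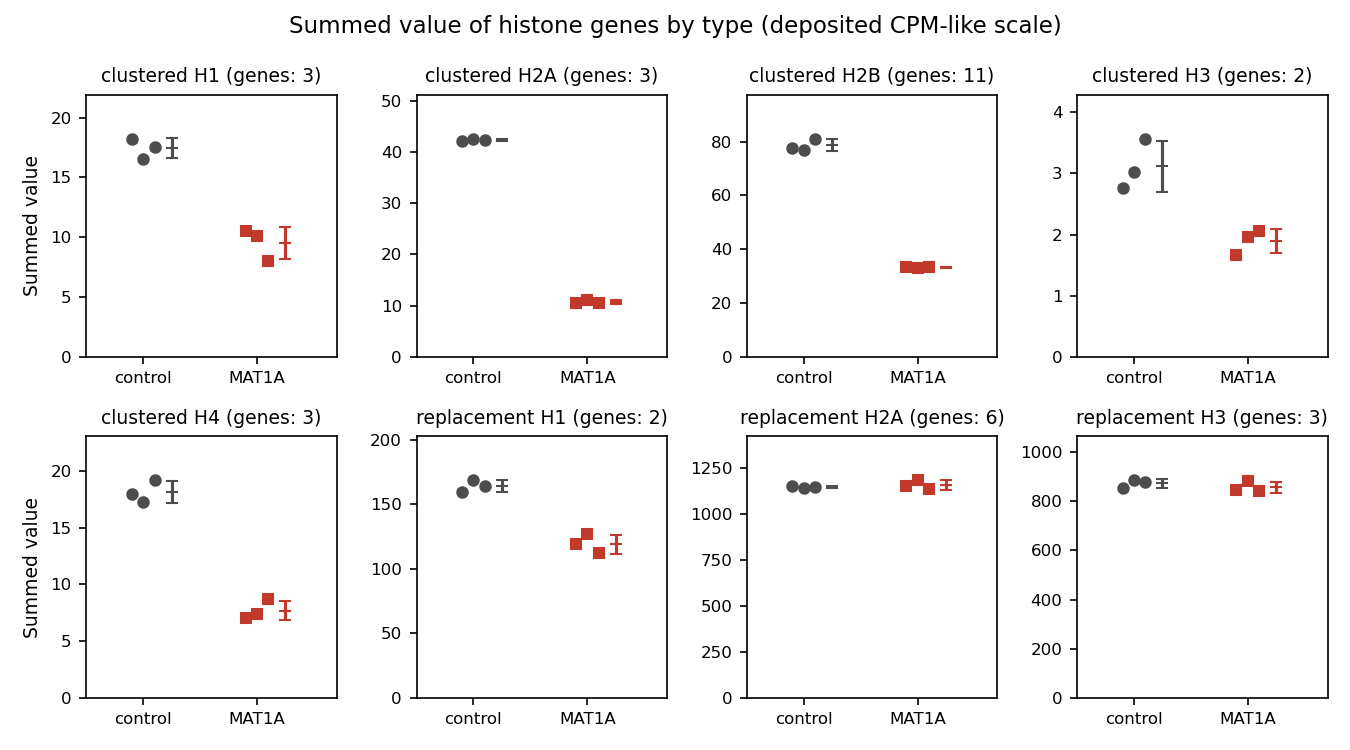
Summed value (vertical axis, deposited scale, from 0) of the clustered and replacement genes of each histone type, with 3 control libraries (grey) and 3 MAT1A libraries (red) as points and the mean with SD beside them. The 5 clustered sums and the replacement H1 sum do not overlap between groups, while replacement H2A (a ratio of 101%) and H3 (98.1%) do.

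The replacement genes of the nucleosome core, 6 for H2A and 3 for H3, gave no call in limma, and in each of the 9 the groups overlapped. H2AFZ and H2AFV encode the H2A.Z variants found around transcription starts. H2AFZ was listed at 439.9, 426 and 436 in the controls and 425, 429 and 414 in the MAT1A libraries, a log2 change of -0.038 (SE 0.029, adjusted p = 0.447). H2AFV was listed at 211, 204 and 207 in the controls and 208, 215 and 211 in the MAT1A libraries, a change of 0.027 (SE 0.031, adjusted p = 0.63). These changes were within or near the spread between libraries.

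H2AFX encodes H2A.X, the variant phosphorylated at DNA breaks. Its values were 129, 135 and 134 in the controls and 141, 149.9 and 128 in the MAT1A libraries, a log2 change of 0.075 (SE 0.046, adjusted p = 0.322) in limma. MAT1A library 3 was below all controls and the other MAT1A libraries above them, and without that library the gene was called higher (0.14, adjusted p = 0.0299). H2AFY and H2AFY2 encode the macroH2A variants, associated with silent chromatin. H2AFY was listed at 317, 322 and 316 in the controls and 322, 332 and 330.0 in the MAT1A libraries, a change of 0.043 (SE 0.029, adjusted p = 0.376). H2AFY2 was listed at 42.2, 41.1 and 36.4 in the controls and 39.2, 42.5 and 38.6 in the MAT1A libraries, a change of 0.0079 (SE 0.058, adjusted p = 0.951). The 2 groups overlapped in both. H2AFJ, an H2A gene outside the large clusters, was listed at 15.2, 15.7 and 15.2 in the controls and 15.7, 16.6 and 13.4 in the MAT1A libraries, a change of -0.012 (SE 0.076, adjusted p = 0.94).

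H3F3A and H3F3B both encode H3.3, which is put into chromatin outside replication. H3F3B took the largest part of the replacement H3 sum, with 833, 867 and 855 in the controls and 827, 861 and 821 in the MAT1A libraries, with a log2 change of -0.027 (SE 0.030, adjusted p = 0.621) in limma. H3F3A was listed at 13.8, 14.6 and 16.1 in the controls and 14.3, 13.7 and 14.2 in the MAT1A libraries, a change of -0.067 (SE 0.072, adjusted p = 0.597). H3F3AP4, a processed pseudogene of H3F3A, was listed at 6.31, 5.61 and 6.76 in the controls and 5.39, 5.76 and 6.67 in the MAT1A libraries, a change of -0.060 (SE 0.099, adjusted p = 0.751). The levels of this H3 pair are uncertain, because every 36-base stretch of the H3F3AP4 model also occurs in H3F3A and how the authors counted reads that fit several genes is not stated in any source used.

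Per kilobase of annotated exon, the control means ran from 0.185 to 45.5 among the clustered genes, highest in HIST1H2BK, HIST1H1C (23.1) and HIST1H2AC (23.0). In the MAT1A group these became 27.2, 13.8 and 5.28. Among replacement genes the highest were H2AFZ, 188 in the controls and 184 in the MAT1A group, and H3F3B, 139 and 136. H2AFX was at 82.0 and 86.6. H1FX and H1F0 were close in the controls, at 43.2 and 42.2 per kilobase, and stood at 37.0 and 27.0 in the MAT1A group. The values per kilobase of HIST1H2BK and HIST1H1C are overstated if reads outside the coding sequence were counted, since their models hold only that.

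Histone genes are near copies of each other, which limits how reads can be assigned to single genes. Of all 36-base stretches of its transcripts, HIST1H2BK had 16.8% found in no other gene, HIST1H1PS1 13.7%, HIST2H2BC 58.5% and HIST2H2BF 69.9%, while HIST1H2AC had 98.7%, HIST1H2BG 98.5% and HIST1H4H 99.8%. The 14 clustered genes with at least 90% such stretches had a median ratio of 46.8% of the control mean, and the 8 with fewer one of 34.8%. Genes on the other strand overlap HIST2H2BC, HIST2H2BF, HIST1H2BN, HIST1H1PS1, H2AFY, H2AFZ and H3F3B, so part of their reads may belong to those genes.

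Genes that transcribe histone genes or process their mRNA were read from a list of 26 symbols, in which MIZF and HINFP name the same gene. Of these, 25 were tested, and limma called 0 higher and 0 lower, with a median log2 change of 0.011. At an unadjusted p under 0.05 in limma there were 4, against 3373 of the 12866 tested genes. edgeR and DESeq2 on the recovered reads also called 0 in either direction, and limma called 1 higher without MAT1A library 1. SLBP, which binds the stem-loop, was listed at 59.4, 57.8 and 60.8 in the controls and 60.4, 60.9 and 61.0 in the MAT1A libraries, a log2 change of 0.034 (SE 0.040, adjusted p = 0.632). NPAT, the cyclin E substrate that activates clustered histone transcription, had a change of 0.0043 (SE 0.059, adjusted p = 0.974), and CASP8AP2 (FLASH), needed for 3′ processing, one of -0.016 (SE 0.054, adjusted p = 0.889). HINFP, an activator of H4 genes, was listed at 16.1, 15.2 and 14.7 in the controls and 16.3, 19.4 and 18.2 in the MAT1A libraries, a change of 0.22 (SE 0.072, adjusted p = 0.0638). With the replicate number as a block limma called HINFP (adjusted p = 0.037) and 1 other gene of the list higher, where 7.57% of all genes were called higher and 10.4% lower.

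Of 28 histone chaperones and deposition factors, all tested, limma called 0 higher and 1 lower, against 4.01% and 7.4% of all genes, with a median log2 change of 0.043. At an unadjusted p under 0.05 in limma there were 8, against 3373 of the 12866 tested genes. edgeR called 0 higher and 1 lower, and DESeq2 0 in either direction. The gene called was ANP32E, which removes H2A.Z from chromatin, listed at 129, 129 and 129 in the controls and 117, 121 and 119.6 in the MAT1A libraries, a change of -0.11 (SE 0.033, adjusted p = 0.0383). Its call was lost with the length and GC correction, where the change was -0.058 (limma adjusted p = 0.227) and 2 of the 28 were called higher and 0 lower. Without any 1 of the control libraries or MAT1A library 1, limma called 0 of the 28 lower. ASF1B, which hands over new H3 and H4 in replication, had a change of 0.10 (SE 0.037, adjusted p = 0.0947), CHAF1A of the CAF-1 complex one of 0.080 (SE 0.035, adjusted p = 0.155), and HIRA, which deposits H3.3, one of 0.053 (SE 0.070, adjusted p = 0.68). With the block, 5 of the 28 were called higher, ASF1B among them, and 2 lower, against 7.57% and 10.4% of all genes.

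Clustered histone mRNA is made mostly in S phase, so genes that peak at G1/S or in S phase were read beside it. Of 28 such genes, 3 were called higher and 0 lower in limma, against 4.01% and 7.4% of all genes, with a median log2 change of 0.053. They were PCNA, the sliding clamp of DNA polymerases, at 199, 205 and 193 in the controls and 213, 225 and 214 in the MAT1A libraries, 0.13 (SE 0.034, adjusted p = 0.0234); FEN1, a flap endonuclease, 0.13 (SE 0.032, adjusted p = 0.0158); and CDC6, a replication licensing factor, 0.12 (SE 0.037, adjusted p = 0.0391). Without control library 1 or control library 3, 0 of the 28 were called; without any 1 of the other libraries, 2 to 4 were called higher. CCNE2, a cyclin that drives S phase entry, was not called, 0.15 (SE 0.056, adjusted p = 0.101). In 13 of the 28 every MAT1A library was above every control library, against 14.4% of all genes of the table. The log2 change was below 0 in 4 of the 28, against 6243 of the 12866 tested genes. At an unadjusted p under 0.05 in limma there were 9 of the 28, against 3373 of the 12866 tested genes. With the block, 6 were called higher and 1 lower, against 7.57% and 10.4% of all genes. Of 20 genes of G2 and mitosis, limma called 0 in either direction (2 at an unadjusted p under 0.05; 0 called by edgeR and by DESeq2), with a median of 0.00076, and 1 lower with the block. Over all tested genes the median log2 change was 0.0040.

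**Figure D4:**
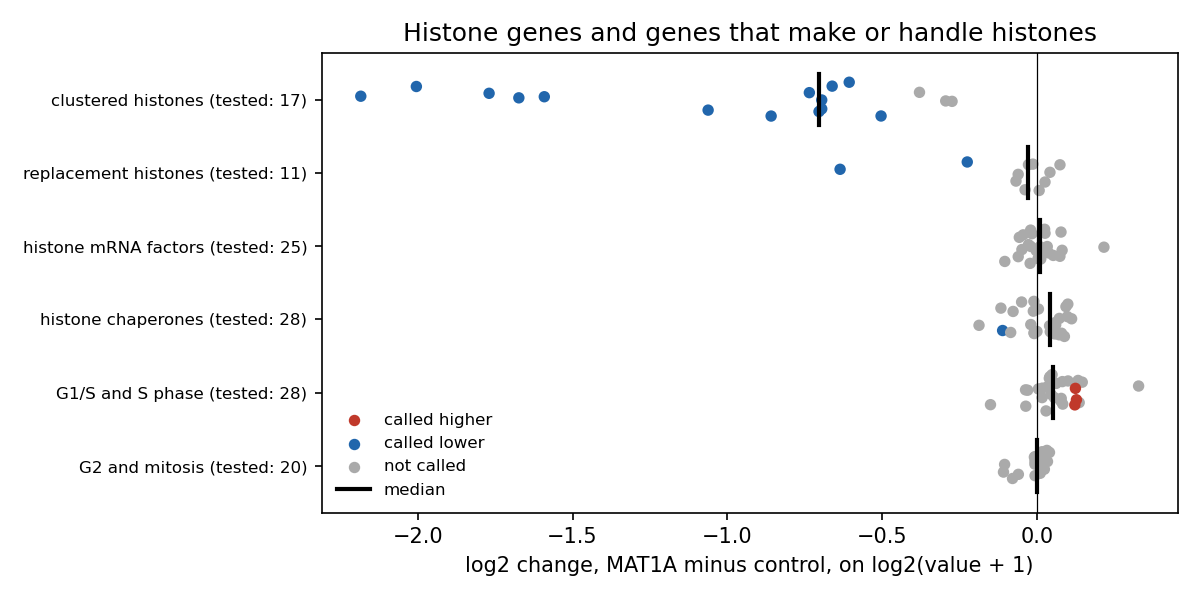
Log2 change on log2(value + 1), MAT1A minus control, of each tested gene (points, horizontal axis) in the histone groups and in 4 lists of genes that make or handle histones or mark cell cycle phases; red and blue points were called higher and lower by limma, and bars are medians. The clustered histones reach to -2.18 with a median of -0.70, while the medians of the other 5 groups lie between -0.027 and 0.053.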

How the data were processed

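The authors deposited 1 table of gene values in which each column is a scaled signal, close to CPM but not raw counts, for 3 control and 3 MAT1A libraries of TruSeq RNA version 2, a kit that does not mark strand, sequenced with 36-cycle reads. STAR 2.6.0c, featureCounts, edgeR and hg38 were used, per the submitters' processing notes; no source used here states the annotation or settings. Column sums ran from 997732 to 1015443. All values were whole multiples of 1 step per column to within 0.001 reads, which gave 17.4 to 21.6 M recovered reads per library; 100% of values came out whole. The lowest row total was 25 reads, so rows with few reads were not analysed here. Columns were matched to groups by the sample titles. Floors cover counting error only, since these reads carry no molecular identifiers.

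The main test was limma 3.58.1 with an intensity trend, in R 4.3.3, on log2(value + 1), over the 12866 genes that reached a value of 1 in 3 or more libraries, with Benjamini-Hochberg adjustment and calls at adjusted p under 0.05. Alternatives were edgeR 4.0.16 (quasi-likelihood test) and DESeq2 1.42.0 on the recovered reads, which called 482 and 319 genes higher and 944 and 638 lower, other scalings, filters, pseudocounts (0.1 and 0.5) and thresholds, a length and GC correction, a replicate block, and leaving out each library. The fit was tested on simulated data. Deviations of same-numbered control and MAT1A libraries correlated at 0.25, 0.18 and 0.19 (other pairs -0.17 to -0.025). The replicate block, run as an alternative, took these numbers to pair the libraries. The main test used no pairing, and its p-values and calls are those printed unless another run is named. The grounds for the pairing come from the data, not the labels. The 2 libraries of any pair differed by more than sampling noise, so none was a repeat of another.

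Values in every library are printed for histone genes that were called or had a mean of at least 5 in either group; related genes were named by the smallest p or by name. The histone genes and the lists were chosen with earlier results of these data known. Genes were matched to GENCODE 29 by symbol (33 of 33 histone genes), and promoters to RefSeq (GRCh38.p14) through the current symbol. Sums over histone genes were given no test.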

Additional observations from a re-analysis of the deposited data

How the results depend on the processing

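All 22 clustered genes had a lower mean in the MAT1A group, and no histone gene that was called changed direction under any alternative run. With a filter at a value of 5 in 3 libraries, 9 clustered genes were tested and 9 called lower, fewer because fewer passed. Over all genes this run called 826 of 10590 lower. HIST1H2BC, HIST1H2BG, HIST2H2BE and HIST1H4H reached 5 in control libraries only, so they passed this filter through the group where they are high. Leaving out 1 library gave 11 to 14 clustered genes called lower with the filter and 15 to 18 without it, the second added after seeing the data. Replacement genes called lower came to 1 at an adjusted p under 0.01 and to 1 or 2 without 1 library, with or without the filter, and those called higher to 0 or 1, the 1 being H2AFX without MAT1A library 3. The log2 ratio of the clustered sums was -1.16 without HIST1H2AC. With the replicate block, 15 clustered genes were called lower, HIST1H3E being the gene added, and 2 replacement genes; limma then called 974 of all genes higher and 1336 lower, and 1065 higher with the length and GC correction as well. Genes called lower over the whole table came to 488 at an adjusted p under 0.01, to 628 with DESeq2 and no filter, to 530 to 988 without 1 library, and with no filter to 608 to 989 (608 without control library 3, 615 without control library 1). Genes called higher came to 175, 321 and 319 (DESeq2 with no filter and with the filter), 219 to 668, and with no filter 228 to 662 (228 without control library 3, 241 without control library 1, 309 without MAT1A library 1), in the same order. Of the fits without 1 library, that without control library 3 called the fewest genes. The cause of these shifts was not tested. No scaling moved the median of all genes by more than 0.1. Depth limits HIST2H2BF, HIST1H2BF and HIST1H1PS1, with at most 4 reads in each MAT1A library.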
